A study of Caenorhabditis elegans with 4 samples.

Results

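Broad binding regions of the transcription factor HAM-1, those of 1000 bp or wider, were described in Caenorhabditis elegans larvae and set against those from 300 bp to under 1000 bp, called mid-width here. They were chosen by their width in the authors' combined list of regions, which is a measured value of the ChIP experiment. Of the 5713 combined regions, 574 were broad, or 10.05% (95% Wilson interval 9.29 to 10.9%), 3910 were mid-width and 1229 were narrower. The larvae were fed L1 hermaphrodites of strain OP102, grown at 20 °C and crosslinked in 2% formaldehyde. Every library came from this strain, whose genotype the labels give as unc-119 (ed3) with the transgene wgIs102, a tagged copy of ham-1 (TY1, EGFP and FLAG) with unc-119(+), and no untagged strain was among the samples. The plasmid was introduced by biolistic transformation and the strain was not outcrossed, per the labels, so the tagged protein came from an added copy of the gene. Chromatin was from whole larvae, in which all cell types are mixed. The 2 ChIP libraries, replicate 1 and replicate 2, were made with anti-GFP antibody, and each had an input library. The inputs have no list of regions here. Nothing in the labels says that the replicates were separate cultures.

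HAM-1 is a winged-helix DNA-binding protein that acts when neuroblasts, the precursors of neurons in the embryo, divide into unequal daughters. A transcription factor at a single short site usually gives a narrow ChIP region, about as wide as the sheared DNA. A broader call can hold several sites close together, or signal spread over a longer stretch of chromatin. In C. elegans the autosomes have central parts with low recombination and many essential genes, and arms that are richer in repeats and in genes that evolve quickly. The X chromosome lacks a sharp division of this kind and is subject to dosage compensation in hermaphrodites.

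Broad regions held 31.1% of the bases in the combined list. They covered 1.01 Mb of the 3.23 Mb in all. In width they had a median of 1404.5 bp and an interquartile range of 1152 to 1918 bp, and the widest reached 10361 bp. Most lay near the lower limit, with 323 under 1500 bp, 118 from 1500 bp to under 2000 bp, 80 from 2000 bp to under 3000 bp and 53 of 3000 bp or more. The limit of 1000 bp does not mark a gap in the widths. The 3 narrowest broad regions measured 1001, 1002 and 1002 bp, on chromosomes IV, IV and V. The widest region outside, on X, was 1 bp short of the limit, and the next ones, on III and I, measured 998 and 995 bp. The same limit gave 425 broad regions in the replicate 1 list (8.95% of 4749) and 172 in the replicate 2 list (7.65% of 2247). No depth or read count was at hand, so the lists could not be scaled to one another. Moving positions between genome builds altered the internal structure of 2 broad regions and their width by 1 bp.

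Broad regions were mostly strong calls. The files give a q-value for each region, the authors' caller's error rate, which falls as the call gets stronger and which ranks regions within a list. It comes from the same libraries as the width, so these values describe the regions and were not tested. The median q-value was 4.79e-16 for broad regions and 2.83e-07 for mid-width ones. Among the 50 strongest combined regions 32 were broad, among the 500 strongest 165, and among the 1000 weakest 17. Strength rose with width within the broad class too. The median −log10 q was 12.1 under 1500 bp, 15.1 from there to under 2000 bp, 21.3 from there to under 3000 bp and 44.2 above. Spearman's rho between width and −log10 q was 0.34 over the 574 broad regions and 0.29 over the 3910 mid-width ones, across regions that share libraries. Weak calls were scarce among broad regions but not absent. There were 20 with q-values of 0.001 or more, or 3.48%, and the highest was 0.00814. The same share was 15.4% of mid-width regions and 21.1% of all combined regions.

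**Figure D1:**
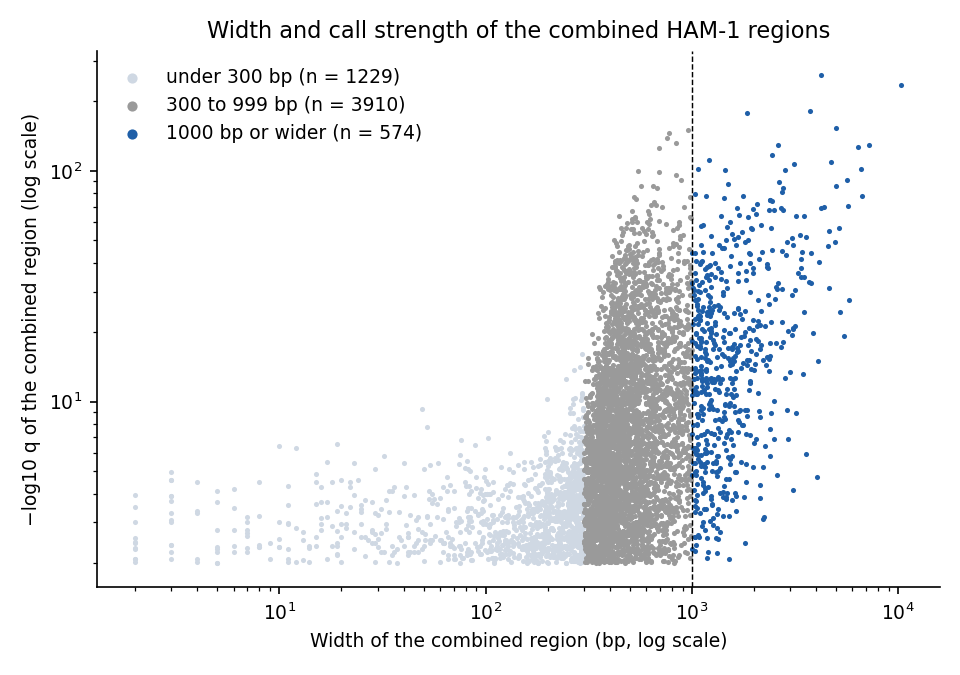
Width (bp, log axis) against −log10 q (log axis) for every combined region, with the 1000 bp limit as a dashed line. The 574 broad regions, right of the line, reach from −log10 q of 2.09 to 260.02, and the points are continuous across the limit.

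The widest regions show how the extreme broad calls looked in each replicate. They are not typical of the class, whose median width was 1404.5 bp. Among all broad regions, 7.32% contained 2 or more regions of replicate 1, and the same share contained 2 or more of replicate 2. The widest, on chromosome V from 6220812 to 6231172, was 10361 bp in the combined list and ranked 2 there by q-value. Replicate 1 had it as 2 regions of 924 and 8925 bp, with a gap between them, and replicate 2 as 2 shorter ones of 2551 and 3163 bp. Replicate 1 thus covered 95.1% of it and replicate 2 covered 55.1%. The next, on chromosome I from 7079119 to 7086336 (7218 bp), was 1 region of 7197 bp in replicate 1 and 2 regions of 1176 and 4434 bp in replicate 2. In both cases replicate 2 covered less of the stretch than replicate 1.

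On chromosome II, from 12097201 to 12103841 (6641 bp), replicate 1 had regions of 2391 and 3946 bp. Replicate 2 had a single region of 559 bp there, 8.42% of the stretch, although that short region ranked 30 in its own list. On X, from 12662710 to 12669277 (6568 bp), replicate 1 had 1 region of 6252 bp and replicate 2 had 3 regions, of 1172, 1810 and 790 bp. The widest region of chromosome III, from 3797035 to 3802234 (5200 bp), was split in both replicates. It held regions of 1148 and 1902 bp in replicate 1 and of 1070 and 892 bp in replicate 2, with a stretch in the middle that neither replicate called. By contrast, the widest region of chromosome IV, from 17276728 to 17281699 (4972 bp), was a single region of nearly the same width in both, 4517 bp in replicate 1 and 4495 bp in replicate 2.

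Of the other 5 among the 10 widest, 3 lay on chromosome V and the remaining ones on X. That on V from 8933976 to 8940347 (6372 bp) was whole in replicate 1, at 6055 bp, and in 2 regions in replicate 2. That on V from 10714934 to 10720660 (5727 bp) was whole in replicate 1, at 5453 bp, and in 3 regions in replicate 2. On V from 4822064 to 4827818 (5755 bp) the order was turned round, with 2 regions of 2486 and 2226 bp in replicate 1 and a single one of 4013 bp in replicate 2. That on X from 6740236 to 6745868 (5633 bp) was a single region in each, of 5610 and 3835 bp. On X from 9548029 to 9553513 (5485 bp) both replicates had 2 regions. All of the 10 widest overlapped both replicates. Their ranks by q-value in the combined list ran from 2 to 790 of 5713, and the highest q-value among them was 5.90e-20.

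**Figure D2:**
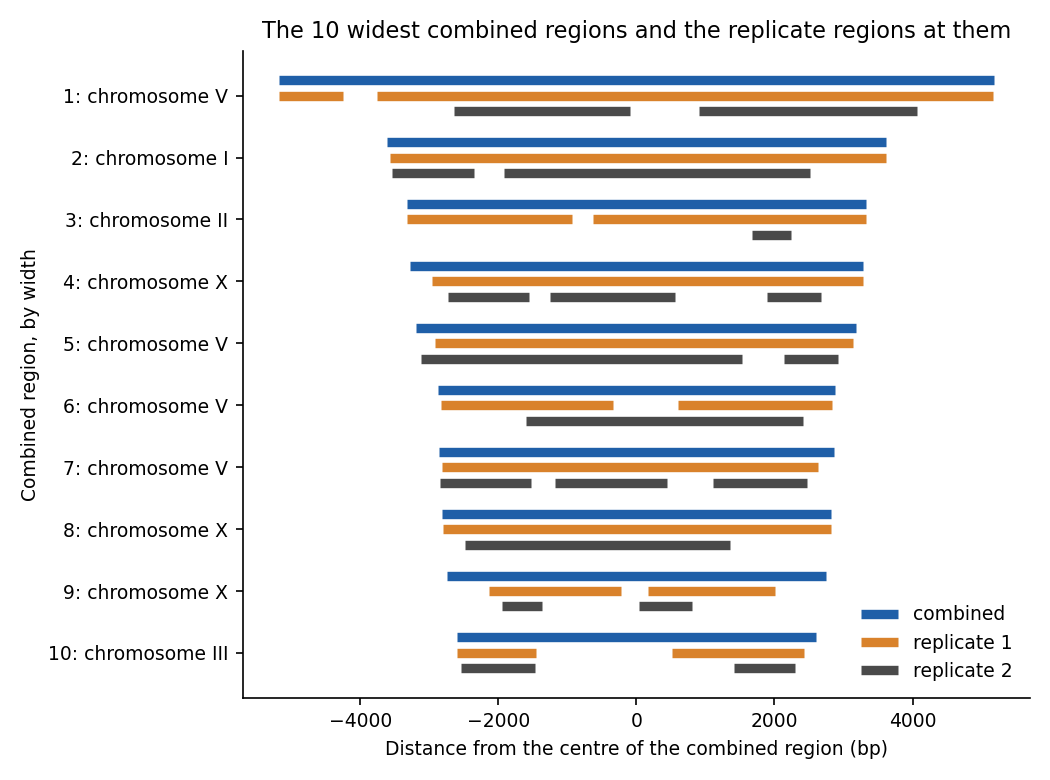
The 10 widest combined regions (blue) with the replicate 1 (orange) and replicate 2 (dark grey) regions that overlap them, drawn to scale as distance in bp from the centre of the combined region. Replicate 1 is split in 5 of the 10 and replicate 2 in 7 of the 10.

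Most broad regions overlapped calls of both replicates. Of the 574, 411 or 71.6% (67.8 to 75.1%) overlapped both by 1 bp or more, against 37.2% of all combined regions. Replicate 1 overlapped 526 of them, or 91.6%, against 79.0% of all, and replicate 2 overlapped 421, or 73.3%, against 38.0% of all. Replicate 1 alone was at 115, or 20.0%, against 41.9% of all. Replicate 2 alone was at 10, or 1.74%, against 0.79% of all, and neither was at 38, or 6.62%, against 20.2% of all. The width rule drew on the same libraries, and a wide region meets a 1 bp overlap more easily, so nothing is read from the excess over the whole list. Under a 50% reciprocal overlap with both replicates the count fell to 42.7% of the broad regions. Support rose with width, from 64.7% in both replicates under 1500 bp to 90.6% at 3000 bp or more.

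Support also differed among the chromosomes, with the fewest on I. There 53 of 101 broad regions, or 52.5% (42.8 to 61.9%), overlapped both replicates, and on II 55 of 84, or 65.5% (54.8 to 74.8%). The shares were 82.9% on III, 80.6% on IV and 80.4% on V. X lay between, with 82 of 117 or 70.1% (61.3 to 77.6%). Replicate 1 overlapped 85.1% of the broad regions on chromosome I and replicate 2 overlapped 53.5%. Mid-width regions on chromosome I were likewise the least often overlapped by replicate 2, at 30.9%, against 41.6 to 53.7% on the other chromosomes.

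Few broad regions broke into several replicate regions, and the share that did was higher in the wider bins. A replicate region counted as inside when at least 50% of its bases lay in the combined region. For replicate 1, 484 broad regions held 1 region, 41 held 2, 1 held 3 and 48 held none. For replicate 2, 379 held 1 region, 38 held 2, 4 held 3 and 153 held none. Thus 42 broad regions, or 7.32% (5.46 to 9.74%), held 2 or more replicate 1 regions, against 0.840% of all combined regions, and as many held 2 or more of replicate 2, against 0.735%. Both replicates were split at 17 of them. Of the 3910 mid-width regions, 6 held 2 replicate 1 regions and none held 2 of replicate 2. A wider region has more room for several, and these shares come from the libraries that set the widths, so they were not tested.

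Holding 2 or more regions of a replicate was the less common case even in the widest bin. Holding a single one did not mean being covered by it. Replicate 2 covered a median of 63.4% of the regions of 3000 bp or more that it overlapped. At least 2 replicate 1 regions lay inside 7 of the 323 regions under 1500 bp (2.17%) and inside 15 of the 53 of 3000 bp or more (28.3%). For replicate 2 the counts were 5 of 323 (1.55%) and 21 of 53 (39.6%). The density of replicate regions went the other way. Broad regions held 0.57 replicate 1 regions per kb and 0.46 of replicate 2, and mid-width regions held 1.65 and 0.84. Regions that held any mostly held 1, so a lower density follows from greater width and is no separate result. The region with the most replicate 1 regions lay on chromosome II from 6826608 to 6830463 (3856 bp), with 3 in replicate 1 and 1 in replicate 2. The gaps between neighbouring replicate 1 regions inside one broad region were short, with a median of 238 bp (214 to 296.5 bp) over 43 gaps. Those of replicate 2 had a median of 379 bp (288 to 643 bp) over 46 gaps. No 2 regions of the combined list or of replicate 1 lay closer than 200 bp anywhere, and the closest of replicate 2 were 213 bp apart.

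**Figure D3:**
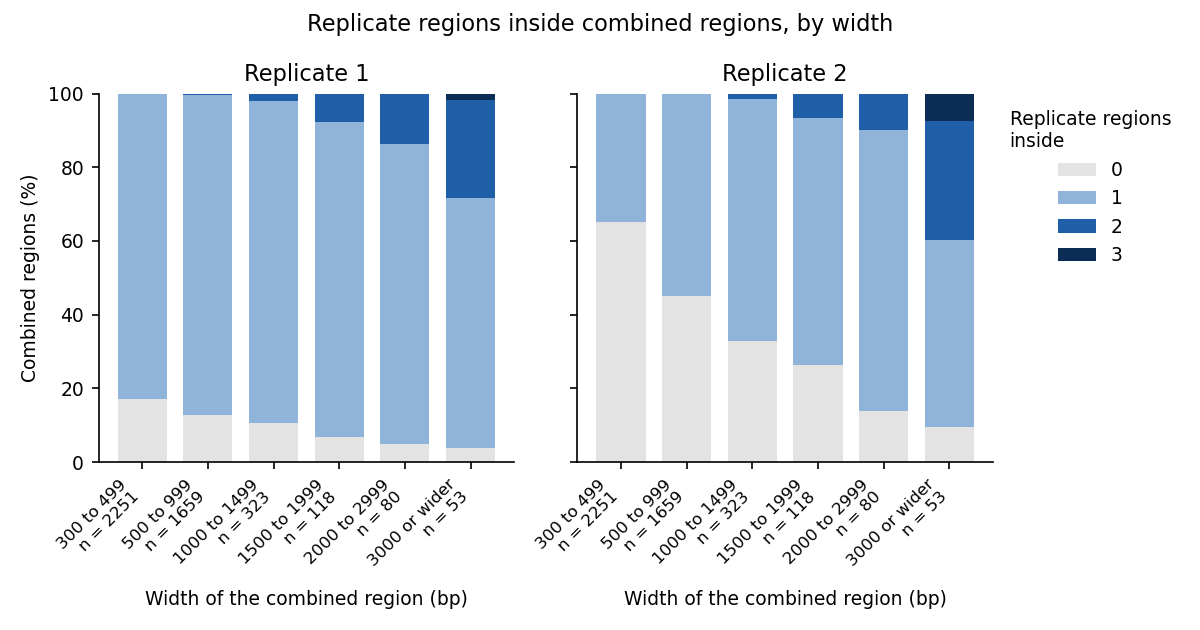
Share of combined regions (%) that hold 0, 1, 2 or 3 regions of replicate 1 (left) or replicate 2 (right), by width of the combined region, with the number of regions under each bar. The share with 2 or more reaches 28.3% and 39.6% in the widest bin.

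Replicate 1 drew nearly the same outline as the combined list, and replicate 2 a narrower one. This was measured at the 348 broad regions that overlapped exactly 1 region of each replicate. Median widths there were 1356.5 bp in the combined list, 1200.5 bp in replicate 1 and 893 bp in replicate 2. Replicate 1 began a median of 22.5 bp inside the combined start and ended 20 bp inside its end. Replicate 2 began 153 bp inside (interquartile range 63.75 to 434 bp) and ended 136.5 bp inside (57.75 to 479 bp). At least 1 edge of replicate 2 lay 200 bp or more inside at 245 of the 348, or 70.4%, and at least 1 edge of replicate 1 at 99, or 28.4%. At the 1672 mid-width regions of the same kind these shares were 9.39% and 1.61%. Median widths there were 515 bp in the combined list, 478.5 bp in replicate 1 and 392 bp in replicate 2. A distance of 200 bp is a larger part of these regions, so nothing is read from the lower shares. Where replicate 1 overlapped, it covered a median of 94.6% of broad and 94.7% of mid-width regions. For replicate 2 the medians were 61.4% and 80.1%.

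A broad combined region was often below 1000 bp in the replicates, more so where the combined region was itself near that limit. Judged by the replicate region with the greatest overlap, 149 of the 574 were 1000 bp or wider in both replicates, 249 in replicate 1 alone, 5 in replicate 2 alone and 171 in neither. Of those 171, 133 overlapped a replicate region that was narrower than the limit. Broad regions were chosen by combined width and most lay near the limit, so a slightly narrower replicate region could fall below it. Where replicate 1 overlapped, its region reached 1000 bp at 62.6% of those under 1500 bp and at 100% of those from 3000 bp. For replicate 2 these shares were 19.4% and 79.2%. Where both replicates overlapped, replicate 1 was the wider at 370 of 411 regions, and the partner widths had a Spearman's rho of 0.56 over these 411 regions. In the other direction, 408 of the 425 broad regions of replicate 1 and 160 of the 172 of replicate 2 lay at a broad combined region.

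The 38 broad regions with no replicate call were weak, and many had a close neighbour. Their q-values ran from 6.52e-06 to 0.00814, with a median rank of 4169 of 5713. The widest, on chromosome I from 6573754 to 6577808, measured 4055 bp at a q-value of 1.86e-05 and lay 217 bp from its nearest neighbour. The second, on X from 4138535 to 4141620 (3086 bp, q-value 7.09e-05), lay 319 bp from its neighbour. The others among the 5 widest were on chromosome I from 8410631 to 8413213 (2583 bp), on V from 14830577 to 14832779 (2203 bp) and on IV from 7908735 to 7910866 (2132 bp). Of the 38, 21 or 55.3% had another combined region within 1000 bp. Of the 411 found in both replicates, 141 or 34.3% had one. So did 52 or 45.2% of the 115 found in replicate 1 alone and 6 of the 10 found in replicate 2 alone. A close neighbour was thus not particular to the 38.

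Broad regions lay nearer to their neighbours than the narrower ones did, measured from edge to edge. The nearest other combined region was a median of 1689 bp away (566 to 5726 bp) for broad regions and 3802.5 bp (1420 to 9420.5 bp) for mid-width ones. Within 1000 bp, 220 broad regions or 38.3% (34.4 to 42.4%) had a neighbour, against 18.6% (17.4 to 19.8%) of mid-width regions and 20.0% of all combined regions. Distances between midpoints differed less, with medians of 3212 and 4341.5 bp. The neighbours are calls of the same libraries, so the distances are given with no test. On the autosomes the share with a neighbour within 1000 bp was 39.9% in the central parts and 38.9% in the outer parts for broad regions, and 22.4% and 17.3% for the narrower class. On X it was 46.5% of 43 broad regions in the central part and 27.0% of 74 in the outer parts, against 11.4% and 15.4% of the narrower class.

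The neighbour of a broad region was itself broad in 128 cases, or 22.3% (19.1 to 25.9%), against 9.97% (9.07 to 10.95%) for mid-width regions. Broad regions within 10000 bp of another broad one numbered 202, or 35.2%. They formed 75 stretches of 2 and 16 stretches of 3 or more. No such count was made for the other regions or set against the local density of regions, so no clustering is read from these numbers. The longest run, 5 broad regions within 25025 bp, lay on chromosome II from 6820346 to 6845370. It contains the region that held 3 replicate 1 regions. Runs of 4 lay on chromosome I from 9372496 to 9384103 and on X from 6728746 to 6750765, and the one on X contains a region of 5633 bp that was among the 10 widest.

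On the autosomes, broad regions lay in the chromosome centres more often than the narrower ones. The stretch of each chromosome up to its last called base was divided into 3 equal parts, and regions were placed by their midpoints. The outer parts stood for the arms. They held 229 of the 457 autosomal broad regions, or 50.1% (45.5 to 54.7%), and 1883 of the 3273 mid-width ones, or 57.5% (55.8 to 59.2%). The difference was -7.42 percentage points, with a 95% Newcombe interval of -12.3 to -2.55 that leaves out 0. Newcombe's interval for the difference of 2 shares served as the test for place, since a chromosome position played no part in the width rule. It treats regions as independent and covers counting error only.

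The lower outer share was found in each list. In the replicate 1 list the difference was -7.43 points (-13.1 to -1.78) and in the replicate 2 list -9.42 points (-18.0 to -0.63), though these lists are not independent of the combined one. Among regions at or under the median q-value of the broad class it was -9.67 points (-16.9 to -2.27). Per Mb, the central parts of the autosomes held 8.29 broad regions and the outer parts 4.16, a ratio of 1.99. Of mid-width regions they held 50.6 and 34.2, a ratio of 1.48. In the combined list the outer share of broad regions was below that of mid-width ones on each autosome. It was 44.0% on II (57.8% for mid-width regions), 45.7% on V (54.4%), 49.5% on I (57.2%), 54.1% on IV (59.2%) and 57.3% on III (58.7%). In the replicate 2 list chromosome V went the other way, with 51.7% of 29 broad and 48.5% of 307 mid-width regions in the outer parts. These single chromosomes were not tested.

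On X the outer parts held 74 of 117 broad regions, or 63.2% (54.2 to 71.4%), and 68.4% (64.7 to 71.9%) of the 637 narrower ones. The difference of -5.20 points had an interval of -14.9 to 3.79, which includes 0. It had the same direction as on the autosomes, and the number of X regions leaves room for a difference as large as theirs or for none. Among the 22 X regions of 2000 bp or wider, 45.5% lay in the outer parts, a difference of -23.0 points (-41.9 to -2.76). Whether X and the autosomes differ in this shift was not tested.

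**Figure D4:**
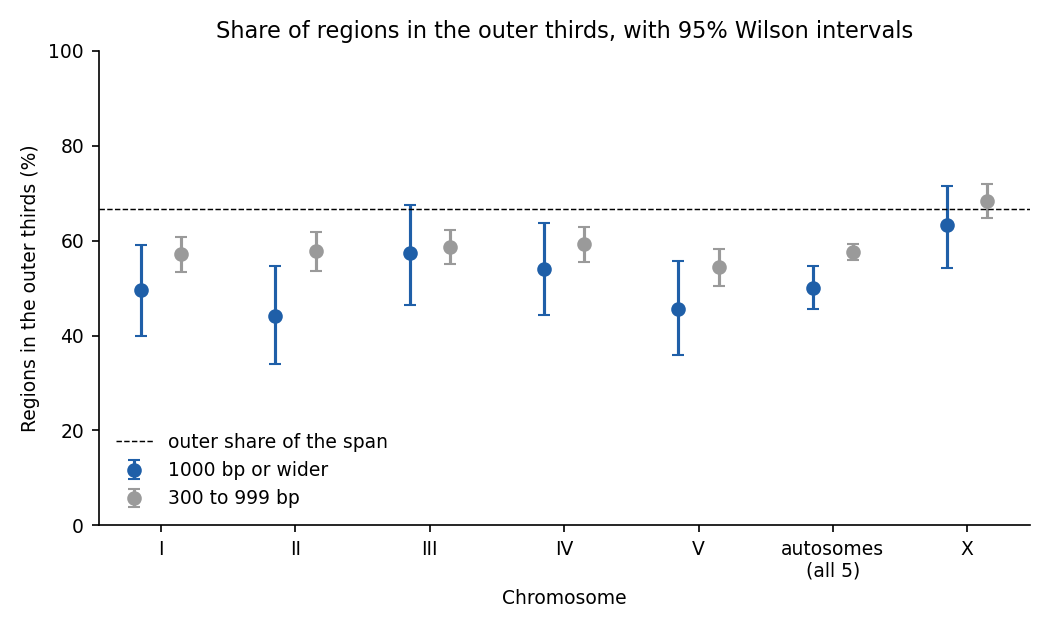
Share of regions (%) in the outer 2 of 3 equal parts of each chromosome, for regions of 1000 bp or wider (blue) and mid-width ones (grey), with 95% Wilson intervals. The dashed line is the share of the span in the outer parts, and the blue points lie below the grey ones on each chromosome.

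X carried a larger share of the broad regions than of the narrower ones. It held 117 of the 574 broad regions, or 20.4% (17.3 to 23.9%), and 637 of the 3910 mid-width ones, or 16.3% (15.2 to 17.5%). The difference was 4.09 percentage points (95% Newcombe interval 0.78 to 7.76). With the interval widened over the 6 chromosomes, to a level of 99.2%, it ran from -0.29 to 9.10 and no longer left out 0. The replicate lists gave 5.75 points (1.90 to 10.07) in replicate 1 and 5.98 points (0.16 to 12.9) in replicate 2, with widened intervals of 0.67 to 11.7 and -1.57 to 15.6. Of all combined regions on X 12.7% (10.7 to 15.0%) were broad, and of those on the autosomes 9.53% (8.74 to 10.4%).

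The X share was highest in the narrowest of the broad regions. X held 23.5% (19.2 to 28.4%) of those under 1500 bp, 16.1% of those from there to under 2000 bp, 15.0% of those from there to under 3000 bp and 18.9% of those of 3000 bp or more. Below the limit, it held 20.0% (18.2 to 22.0%) of the regions from 500 bp up and 13.5% (12.2 to 15.0%) of those from 300 bp to under 500 bp. The first of these was close to the 20.4% of the broad class, so a high X share was not particular to broad regions. With broad regions taken from 1500 bp, the difference in X share was 0.04 points (-4.19 to 5.24). Among regions at or under the median q-value of the broad class it was 0.51 points (-4.24 to 5.84), so the call did not hold for these strongest regions alone. At q-values under 0.001 the difference was 5.13 points (1.75 to 8.86), an interval that leaves out 0. The median width of broad regions was 1239 bp on X and 1428 bp on the autosomes, and the median q-values were 2.46e-13 and 8.92e-17.

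No autosome differed in its share of broad and narrower regions beyond the interval widened over the 6 chromosomes. In the combined list the nearest was III, with 82 broad regions or 14.3% against 18.7% of the narrower class (difference -4.46 points, -8.29 to 0.11). The differences on I, II, IV and V were 0.28, 0.44, -0.50 and 0.15 points in the combined list. In the replicate 2 list the difference on III was 0.18 points and that on IV was -6.17 points (-12.6 to 2.71), from 15.1% of the broad and 21.3% of the mid-width regions. With broad regions taken from 1500 bp the difference on II was 4.13 points (-1.63 to 11.5), and from 2000 bp 5.35 points (-2.26 to 15.9). A point estimate near 0 does not show equal shares, since the combined list's intervals on I, II, IV and V reached from -4.59 to 5.11 points. Per Mb, broad regions were densest on I (6.70) and X (6.60), then III (5.95), IV (5.61), II (5.51) and V (4.40). The narrower class had another order, with III highest at 53.2 per Mb and X at 35.96.

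**Figure D5:**
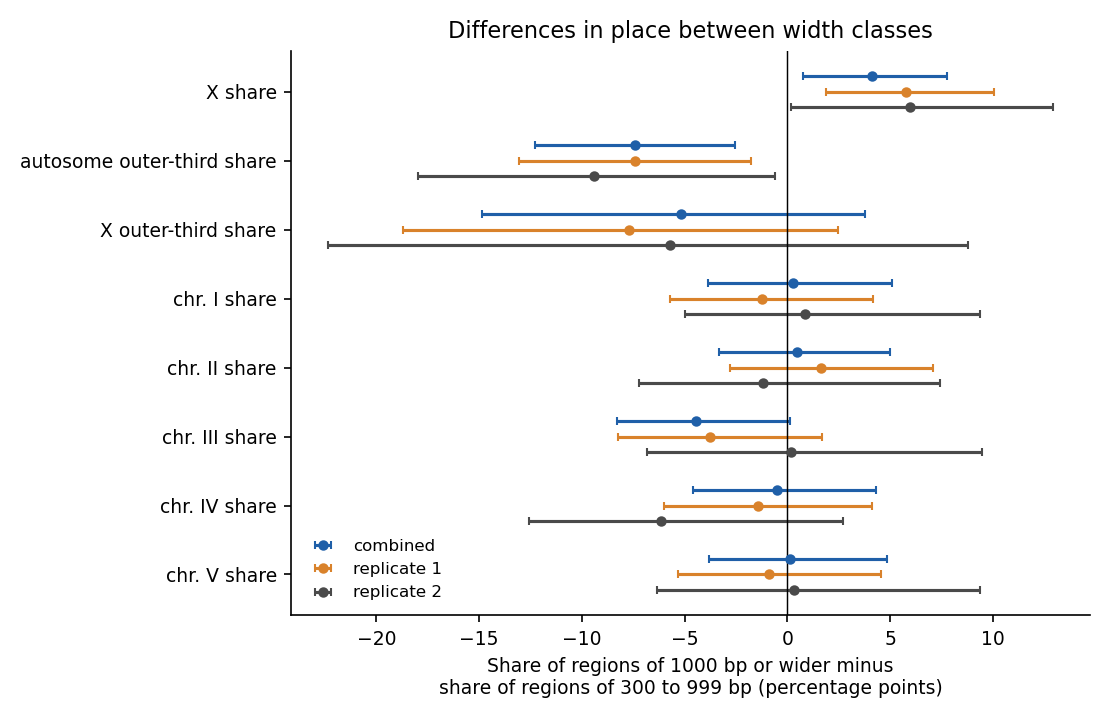
Difference in share between regions of 1000 bp or wider and mid-width regions (percentage points) in the combined, replicate 1 and replicate 2 lists. Bars are Newcombe intervals, at the 95% level for the upper 3 rows and widened to 99.2% for chromosomes I to V, and the intervals of the autosome outer share lie below 0 in all 3 lists.

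Along the chromosomes, the number of broad regions per 1 Mb stretch had a median of 6 (interquartile range 4 to 8) over 97 whole stretches. The fullest was chromosome I from 7000001 to 8000000, with 15 broad regions among 98, and it contains the region of 7218 bp. Chromosome I from 9000001 to 10000000, II from 8000001 to 9000000 and IV from 11000001 to 12000000 had 12 each. These were among 100, 83 and 74 combined regions. On chromosome I, 12 of 100 is near the 10.05% of the whole list, so a high count there went with many regions of any width. Of the stretches, 3 had none: the first Mb of II, IV from 15000001 to 16000000 and V from 3000001 to 4000000, which held 35, 32 and 38 combined regions. The gene content and base composition of these stretches were not analysed here, and their part in the pattern was not tested.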

How the data were processed

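The authors deposited 3 lists of HAM-1 binding regions, 1 for each ChIP replicate and 1 combined. Per the file headers and the source column they were called with PeakSeq and are given on WormBase WS220, to which comment lines record a liftover. For each region the authors deposited its limits and its q-value. How reads were aligned, how replicates were combined and how inputs were used is not given in the sources used here. Widths are end minus start plus 1. Shares have 95% Wilson intervals, and their differences have Newcombe intervals, widened over 6 chromosomes for the autosome shares. A difference passed where the interval left out 0. Regions are not independent, and intervals cover counting error only. Values from the ChIP contrast itself (q-values, overlaps, neighbours) were described and not tested. No genome of this build was at hand, so no gene or sequence is given. Regions, classes and comparisons were chosen with earlier results of these data known. Named regions were the 10 widest, the widest per chromosome, the 5 with most replicate 1 regions, the 5 widest in neither replicate, the 3 nearest the limit on each side, and the 3 widest of each replicate outside the combined list. Runs and 1 Mb stretches were named after their values were seen. Python 3.11.15, numpy 2.4.6, pandas 2.3.3 and scipy 1.17.1 were used. The overlap and gap functions were checked by brute force on samples of the real lists. The Newcombe interval was checked on a published example and on simulated counts.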

Additional observations from a re-analysis of the deposited data

How the results depend on the processing

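Of 106 alternative values, 72 kept both direction and call or, for values with no test, stayed inside the interval of the reported one. Another 14, all chromosome shares, turned in direction with no change of call, since their intervals include 0 throughout. The 12 that leave out chromosomes or keep parts of them were chosen after seeing the data. The lower autosomal outer share of broad regions kept its call under all 15 alternatives run on it, between -5.99 points (without chromosome II) and -11.8 (from 1500 bp). Without replicate 1 or 2, that is in the other replicate's own list, it was -9.42 to -7.43 points. The X share difference kept its call under 7 of 11 alternatives. It was 6.03 points from 800 bp, 4.76 against all regions under 1000 bp and 5.13 at q under 0.001. In both replicates it was 4.37, in the outer parts 5.62, and in the replicate lists 5.75 to 5.98 points. It was 0.043 points from 1500 bp, 0.25 from 2000 bp, 0.51 among strong calls and 3.23 in the central parts, all with intervals that include 0. The outer share on X passed at 2000 bp (-23.0 points). The chromosome I difference turned to -1.23 points from 800 bp, -1.53 from 2000 bp, -0.65 among strong calls and -0.66 at q under 0.001. That of II turned to -0.074 from 800 bp, -0.62 among strong calls and -1.72 in both replicates, that of IV to 0.0094 among strong calls and 0.45 among autosomes, and that of V to -0.78 against all regions under 1000 bp. In the replicate lists I ran from -1.26 to 0.87, II from -1.19 to 1.63, III from -3.78 to 0.18, IV from -6.17 to -1.45 and V from -0.89 to 0.32. None of these passed on either side, and the cause was not tested. Broad regions in both replicates were 42.7% at 50% reciprocal overlap, 80.5% from 1500 bp, 87.2% from 2000 bp and 63.2% at q under 0.001. All 411 broad regions in both replicates had combined q-values of 0.000138 or less. The 63.2% is therefore lower because replicate regions were dropped at that limit, and does not mean that stronger broad regions had less support. Those with 2 or more replicate 1 regions were 5.40% wholly inside, 13.9% from 1500 bp, 19.5% from 2000 bp and 4.87% at q under 0.001, and for replicate 2 they were 14.7%, 21.8% and 4.33% at the last 3 settings. A neighbour lay within 2000 bp of 53.8%, and within 1000 bp of 31.4% at q under 0.001 and of 31.98 to 34.4% in the replicate lists. With depth unknown, absence from a list is no evidence of absent binding. No paired analysis was possible because neither input library comes with region values to pair with its ChIP library.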

Other observations

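Some of the broadest and strongest replicate regions overlapped no combined region and so were not counted as broad regions above. Of regions of any width, 187 of the 4749 in replicate 1 and 31 of the 2247 in replicate 2 overlapped none. Of those of 1000 bp or wider there were 6 in replicate 1 (1.41% of 425) and 12 in replicate 2 (6.98% of 172). The widest was on chromosome I from 5372259 to 5381936, 9678 bp in replicate 1, where it had the lowest q-value of the list, and replicate 2 held it as a region of 8443 bp with rank 8. At 9678 bp it would have been the second widest region of the combined list.

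A stretch of chromosome II held several broad regions in both replicates and none of them overlapped a combined region. Replicate 1 had regions of 3797 bp from 10541889, 6986 bp from 10545943 and 6878 bp from 10553173 to 10560050, with ranks 92, 15 and 28. Replicate 2 had 6 broad regions there, from 10541893 to 10559652, of 1160 to 4574 bp and with ranks from 79 to 1577. On III, from 8443325 to 8447830, replicate 1 had a region of 4506 bp with rank 2 that overlapped one of 4239 bp with rank 5 in replicate 2. The 4 strongest regions of replicate 2 were broad and overlapped neither the combined list nor replicate 1. They lay on X from 16929264 to 16932047 (2784 bp), on III from 9050722 to 9055097 (4376 bp), on V from 1803967 to 1806522 (2556 bp) and on I from 15063996 to 15067645 (3650 bp), where the last called base of chromosome I is. The stretch on II, this pair on III and these 4 were named after their values were seen, and the cause of their absence from the combined list was not tested.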
